A study of Sus scrofa with 18 samples.

Results

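ATP2A2, PLN, RYR2, CASQ2, KCNJ2 and GJA1 are 6 genes of calcium cycling and electrical conduction in heart muscle. Their members here are all probe sets that the array's probe table pairs with exactly 1 of these symbols, which gave 13 of the 23935 probe sets tested and 6 of the 6765 genes named. ATP2A2 had 4 probe sets, RYR2 had 3, PLN and CASQ2 had 2 each, and KCNJ2 and GJA1 had 1 each. Each probe set is given on its own, because probe sets of one gene did not move alike.

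RNA of the right ventricular free wall came from 9 pigs bred from Hampshire, Yorkshire and Swedish Landrace stock, once at baseline and once in heart failure, and was hybridised to 18 Affymetrix 3' IVT arrays. Failure followed ligation of coronary arteries on the right ventricular wall, so each pig was its own control and no pig without ligation was analysed here. The labels of 6 pigs (6, 8, 9, 11, 12 and 13, called label set 1) give 120 min of ischemia for the failure sample. Those of the other 3 pigs (5, 10 and 14, called label set 2) give a body weight of 30 to 40 kg and define failure as a right atrial pressure above 20 mmHg.

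In a heart muscle cell, an action potential lets in a little calcium, which opens the ryanodine receptor and releases much more from the sarcoplasmic reticulum, and the cell contracts. It relaxes as the calcium pump returns calcium to that store. The pump is encoded by ATP2A2 and is restrained by phospholamban (PLN), the release channel by RYR2, and the protein that buffers calcium inside the store by CASQ2. KCNJ2 encodes the Kir2.1 potassium channel, which holds the resting membrane potential. GJA1 encodes connexin 43, the gap junction protein through which the impulse passes between ventricular muscle cells.

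Values are log2 intensities, on which a difference of 1 is a 2-fold change in intensity. Folds are taken between samples of 1 probe set. Probes differ in how brightly they bind, so a rank of one probe set's level among the others describes its signal on the array, not the abundance of its transcript. The samples carried the markers of their labelled tissue: 8 of 9 cardiomyocyte genes were measured, with mean levels from 13.5 to 14.9 and changes in failure from -0.08 to 0.00. Pig 5 stood apart in RNA quality. Its log2 difference between the 3' and the 5' control probe set of GAPDH, which grows as RNA is degraded, was 2.61 at baseline against 0.61 to 1.49 in the other 8 pigs, and 3.55 in failure. Pig 5 was the lowest baseline sample for 5 of the 13 probe sets, so values without it are given beside those it moves. Because the samples are bulk tissue, fewer cells of a type and less RNA per cell cannot be told apart.

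Of the 13 probe sets, 0 passed the test of failure against baseline in limma's paired fit (Benjamini-Hochberg adjusted p under 0.05 over all probe sets), and 2 had an unadjusted p under 0.05. Over all probe sets, 16 of 23935 passed (0.0668%) and 6.14% had an unadjusted p under 0.05. Mean changes were above 0 for 6 members and below 0 for 7, with a median of -0.00, as over all tested probe sets (0.00). Adjusted p ran from 0.497 to 0.999. Of the 13 estimated changes, 11 lay between -0.09 and 0.04, and the other 2 were both of ATP2A2.

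**Figure D1:**
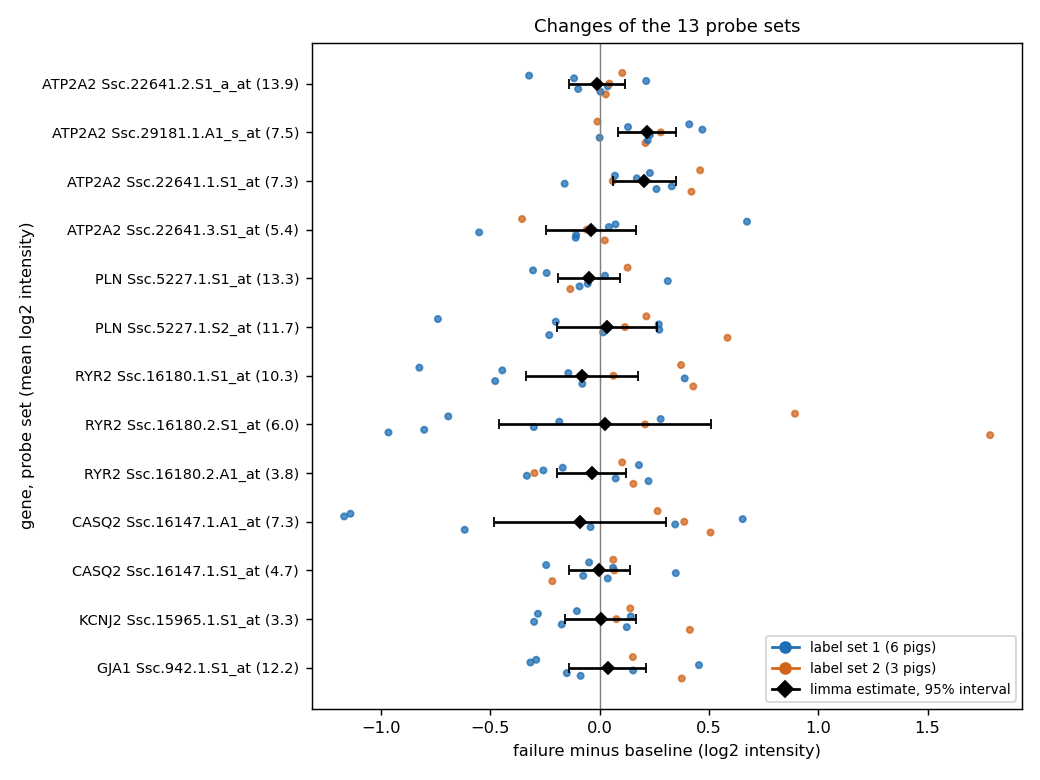
Change in failure for the 13 probe sets, as failure minus baseline in log2 intensity (horizontal axis), with the mean level of each in parentheses. Points are pigs, coloured by label set, and diamonds with bars are the limma estimate and its 95% interval. Intervals of 2 ATP2A2 probe sets, both deposited with 2 decimals, lie above 0 and the other 11 include 0. Single pigs of RYR2 and CASQ2 reach 1.79 and -1.17.

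ATP2A2, the calcium pump, did not change in the same way over its 4 probe sets. The 2 whose intervals lay above 0 were deposited with 2 decimals, the other 2 with 4 or 5, as described below. The brightest, Ssc.22641.2.S1_a_at, lay among the most intense on the array, at a level higher than 99.9% of tested probe sets. Its lowest, median and highest values were 13.42, 14.08 and 14.19 at baseline and 13.45, 13.98 and 14.14 in failure. The groups overlapped almost entirely. The mean went from 13.94 ± 0.26 to 13.93 ± 0.22 (SD, n = 9), a change of -0.01 (SE 0.06, 95% interval -0.14 to 0.12, limma adjusted p = 0.993). The interval spans ratios of failure to baseline from 0.907 to 1.09. By pig, the change ran from -0.32 in pig 13 to 0.21 in pig 11 and was above 0 in 6 of 9.

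The second ATP2A2 probe set, Ssc.29181.1.A1_s_at, was at 6.92, 7.44 and 7.71 at baseline (lowest, median and highest) and at 6.91, 7.66 and 7.99 in failure. In Affymetrix's naming, the letter s marks probes that can match more than 1 transcript. The ranges overlapped here too, but within pigs failure was the higher sample in 7 of 9, with 1 pig at 0.00 and pig 14 at -0.01. The estimated change was 0.22 (SE 0.06, 95% interval 0.08 to 0.35, unadjusted p = 0.00369, limma adjusted p = 0.497). The third, Ssc.22641.1.S1_at, was at 6.68, 7.39 and 7.54 at baseline and at 7.14, 7.36 and 7.93 in failure. It was higher in failure in 8 of 9 pigs, pig 9 being the exception at -0.16. Its change was 0.20 (SE 0.07, 95% interval 0.06 to 0.35, unadjusted p = 0.00909, limma adjusted p = 0.591). Neither passed the threshold, and neither did in any alternative run.

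These 2 probe sets differ from the other 11 members in how their values were deposited. Both are given with 2 decimals on all arrays, whereas the other 11 are given with 4 or 5. Over the whole table, 1467 tested probe sets have at most 2 decimals, and 73.8% of those have an unadjusted p under 0.05 for failure against baseline, against 1.72% of the 22468 with more decimals. The 6.14% with an unadjusted p under 0.05 over all probe sets joins both kinds of row. The only members with such a p are the 2 ATP2A2 probe sets. All 16 probe sets that passed the threshold have at most 2 decimals. How those rows were processed is not given in the sources used here, and the part of the decimals in the ATP2A2 values was not tested.

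The dimmest ATP2A2 probe set, Ssc.22641.3.S1_at, had a mean level of 5.36, below the median of all tested probe sets (5.63), and a wide spread between pigs at baseline (4.18 to 6.40). Its change was -0.04 (SE 0.10, 95% interval -0.25 to 0.17, limma adjusted p = 0.975). Within pigs, the second probe set moved above the brightest one in 8 of 9 pigs, by 0.23 ± 0.22 (SD, n = 9), and the third in 7 of 9, by 0.22 ± 0.25 (SD, n = 9). The mean of the 4 probe sets, tested as 1 value per gene with all named genes treated likewise, changed by 0.09 (limma adjusted p = 0.847). These contrasts and this mean include the probe sets deposited with 2 decimals. The other 2 ATP2A2 probe sets changed by -0.01 and -0.04.

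PLN, the inhibitor of the pump, was measured by 2 bright probe sets. Ssc.5227.1.S1_at was at 12.52, 13.39 and 13.64 at baseline (lowest, median and highest) and at 12.39, 13.36 and 13.70 in failure. Pig 5 held the lowest value in both groups, far from the other 8, and the groups overlapped over nearly their whole range. The change was -0.05 (SE 0.07, 95% interval -0.19 to 0.10, limma adjusted p = 0.951), and -0.04 without pig 5. Ssc.5227.1.S2_at went from 11.73 ± 0.41 to 11.76 ± 0.28 (SD, n = 9), a change of 0.03 (95% interval -0.20 to 0.26, limma adjusted p = 0.983), and of -0.04 without pig 5. Its changes varied more between pigs than those of 92.3% of tested probe sets, from -0.74 in pig 13 to 0.58 in pig 5.

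Because phospholamban restrains the pump, the change of ATP2A2 was set against that of PLN within each pig. With the brightest probe set of each, ATP2A2 minus PLN changed by 0.03 ± 0.14 (SD, n = 9) and was above 0 in 5 of 9 pigs (exact sign-flip test, two-sided, p = 0.496; the smallest p that 9 pigs allow is 0.0039). Pig 9 was the lowest at -0.27, and pig 11 the highest at 0.19. Over all 8 pairs of an ATP2A2 and a PLN probe set, the mean difference ran from -0.07 to 0.26, so its sign depended on the probe sets taken. The highest was that of Ssc.29181.1.A1_s_at with Ssc.5227.1.S1_at, at 0.26 ± 0.27 (SD, n = 9; exact sign-flip p = 0.027, not adjusted for the 8 pairs). That ATP2A2 probe set is one of those deposited with 2 decimals.

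**Figure D2:**
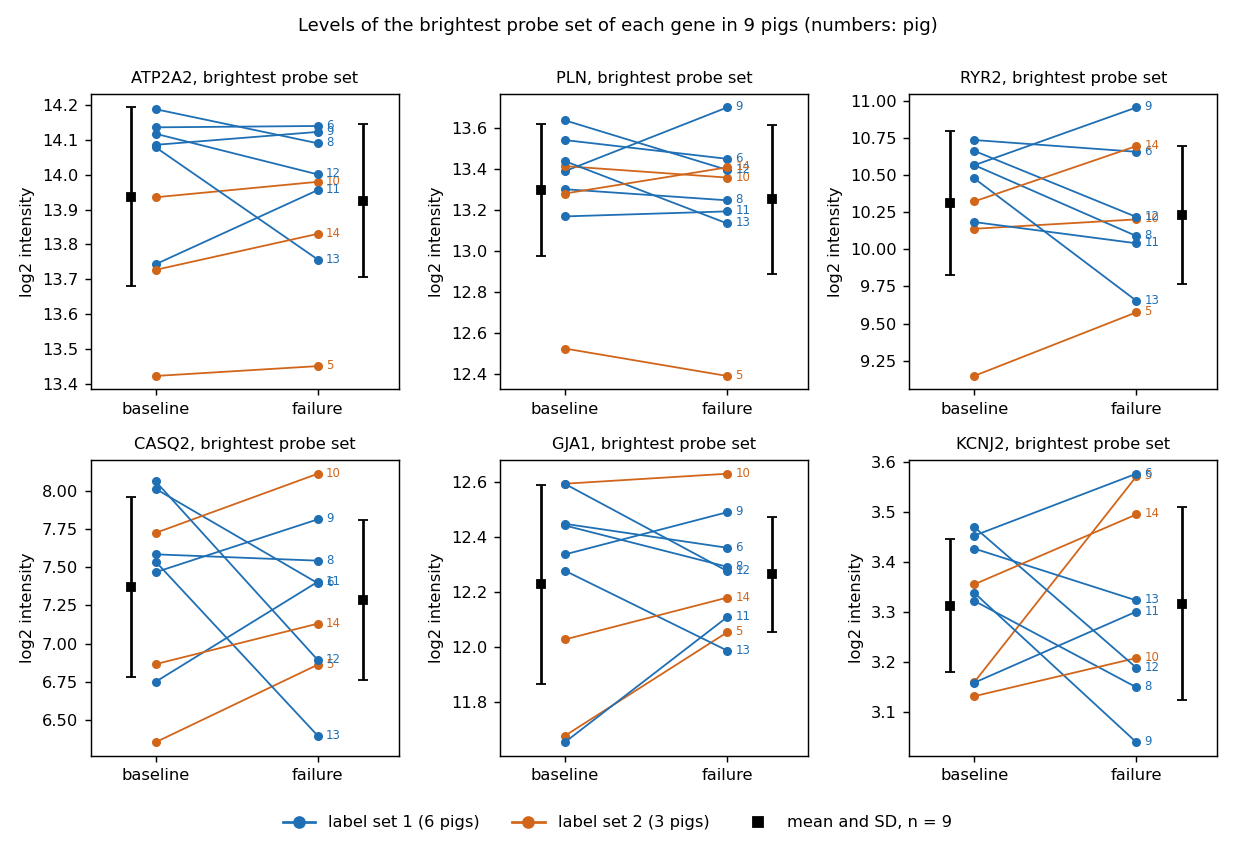
Log2 intensity of the brightest probe set of each gene at baseline and in failure, with a line for each of 9 pigs, coloured by label set and numbered at failure. Squares with bars are mean and SD. The vertical axes differ in range and do not start at 0. Pig 5 is lowest at baseline for ATP2A2, PLN, RYR2 and CASQ2, and lines run both up and down for all 6 genes.

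RYR2, the release channel, was measured by 3 probe sets. Ssc.16180.1.S1_at was at 9.15, 10.48 and 10.74 at baseline (lowest, median and highest) and at 9.58, 10.20 and 10.95 in failure. The median was lower in failure, but the ranges overlapped and 4 of 9 pigs were higher. The change was -0.08 (SE 0.12, 95% interval -0.34 to 0.18, limma adjusted p = 0.956), and -0.14 without pig 5. It varied between pigs more than for 95.6% of tested probe sets, from -0.82 in pig 13 to 0.43 in pig 5.

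The second RYR2 probe set, Ssc.16180.2.S1_at, varied most of the 13. Its level was 6.01 ± 0.55 at baseline and 6.04 ± 0.80 in failure (SD, n = 9), and its change of 0.02 had a 95% interval from -0.46 to 0.51 (limma adjusted p = 0.997). The SD of that change, 0.89, exceeded that of 99.7% of tested probe sets, and single pigs ran from -0.97 (pig 6) to 1.79 (pig 5). Without pig 5 the mean was -0.20. The third, Ssc.16180.2.A1_at, was dim, at 3.77 ± 0.21 and 3.73 ± 0.16 (SD, n = 9), with a change of -0.04 (limma adjusted p = 0.971).

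CASQ2, the calcium buffer of the store, varied nearly as much. Ssc.16147.1.A1_at was at 6.35, 7.54 and 8.06 at baseline (lowest, median and highest) and at 6.40, 7.39 and 8.11 in failure. The groups covered nearly the same range, with 5 of 9 pigs higher in failure. The mean change of -0.09 (SE 0.18, 95% interval -0.48 to 0.30, limma adjusted p = 0.971) joined changes of -1.17 in pig 12, -1.14 in pig 13 and -0.62 in pig 6 with 0.65 in pig 11 and 0.51 in pig 5. It was -0.16 without pig 5 and 0.21 without pigs 12 and 13. The other CASQ2 probe set, Ssc.16147.1.S1_at, lay below the median level, at 4.70 ± 0.09 and 4.70 ± 0.20 (SD, n = 9; change -0.00, limma adjusted p = 0.999).

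KCNJ2, the resting potassium channel, was the dimmest member (Ssc.15965.1.S1_at). It was at 3.13, 3.34 and 3.47 at baseline (lowest, median and highest) and at 3.04, 3.30 and 3.58 in failure, higher than only 13.5% of tested probe sets. Its change was 0.00 (SE 0.08, 95% interval -0.16 to 0.17, limma adjusted p = 0.997), and -0.05 without pig 5. Its mean level of 3.31 lay near the low end of the array, where 25% of tested probe sets were below 3.98. Whether the transcript was detected was not tested, so an interval around 0 says little about it. The same limit holds wherever KCNJ2 is counted or paired below.

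GJA1, the gap junction protein, was bright (Ssc.942.1.S1_at). It was at 11.65, 12.34 and 12.59 at baseline (lowest, median and highest) and at 11.99, 12.28 and 12.63 in failure. Failure samples lay within a narrower band, and 5 of 9 pigs were higher. The change was 0.04 (SE 0.08, 95% interval -0.14 to 0.21, limma adjusted p = 0.973), which spans ratios from 0.907 to 1.16, and -0.01 without pig 5.

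The spread between pigs differed among the members. The SD of the change lay above the median of all tested probe sets (0.22) for 8 of the 13, close to an even split, and its percentile ran from 17.9 and 22.4 for the first 2 ATP2A2 probe sets, 29.4 for CASQ2 Ssc.16147.1.S1_at and 34.7 for PLN Ssc.5227.1.S1_at to 99.3 for CASQ2 Ssc.16147.1.A1_at and 99.7 for RYR2 Ssc.16180.2.S1_at. Taking the brightest probe set of each gene, all 6 were lower in failure in pigs 8, 12 and 13, and all 6 were higher in pig 14. PLN, RYR2, CASQ2 and GJA1 were all 4 higher in pigs 9 and 14, and all 4 lower in pigs 6, 8, 12 and 13.

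**Figure D3:**
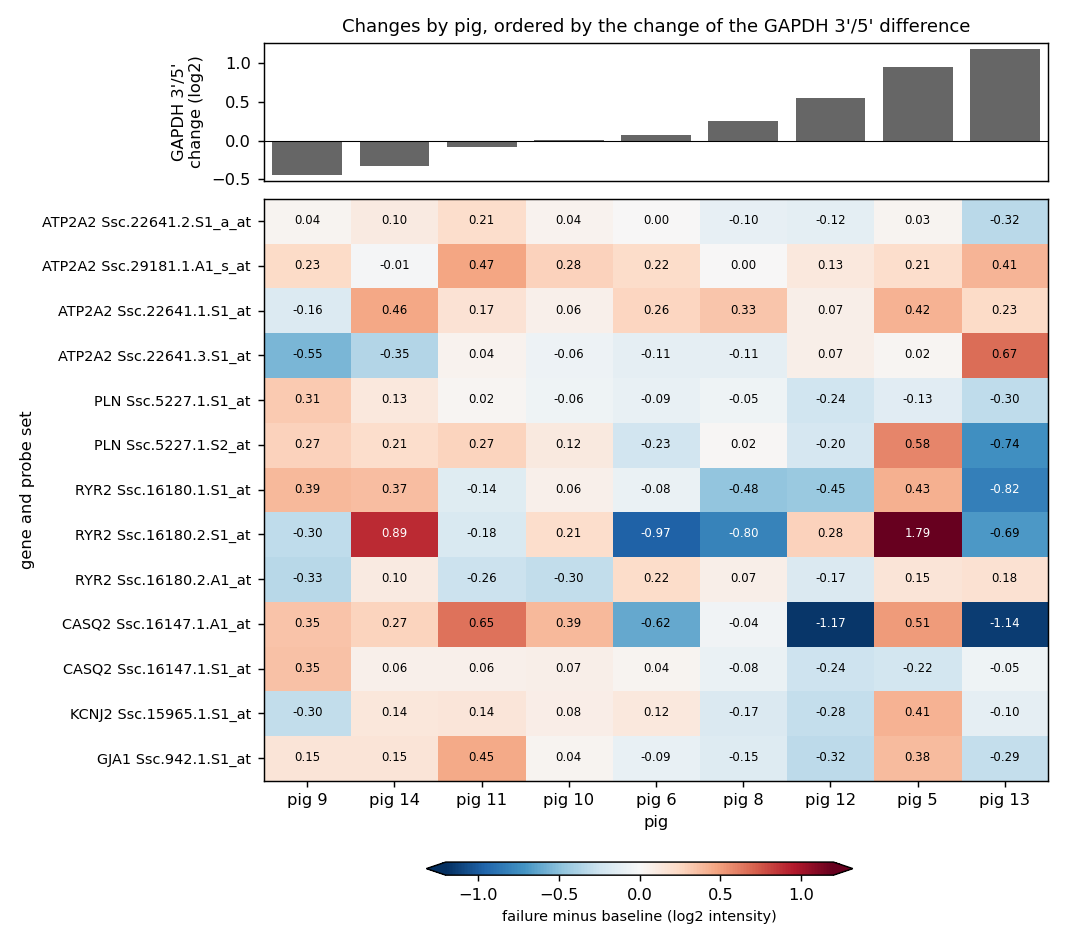
Changes of the 13 probe sets in each pig (lower panel, failure minus baseline in log2 intensity, red higher and blue lower) beneath the change of the GAPDH 3'/5' difference in the same pig (bars, log2), with pigs ordered by that change. The brightest RYR2 and both PLN probe sets are positive in pigs 9 and 14 and negative in pigs 12 and 13, and pig 5 breaks the order for RYR2, CASQ2 and GJA1.

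Relations between the changes of the brightest probe sets of 2 genes were computed for all 15 pairs after the pattern by pig had been seen in the same values, so they are a description over 9 pigs, with no test. Pearson r was 0.8 or more for 3 of 15 pairs, against 1.18% of all pairs of named genes and 1.66% of pairs above the median level (where 3 of 10 member pairs had it). CASQ2 and GJA1 had r 0.896 and Spearman rho 0.933, and r was 0.796 without pigs 12 and 13. ATP2A2 and GJA1 had r 0.837 and rho 0.833, with r 0.774 without pigs 11 and 13, and ATP2A2 and CASQ2 had r 0.820 and rho 0.817, with r 0.705 without those pigs. Without pig 5 there were 4 such pairs, PLN with RYR2 (0.879) being the fourth, against 1.65% of all pairs and 2.20% of those above the median level (members 4 of 10). The lowest r of the 15 pairs was that of PLN and KCNJ2, at -0.091. All pairs share the same arrays.

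RNA quality moved with some of these changes. The GAPDH 3'/5' difference changed by 0.24 ± 0.56 (SD, n = 9) in failure, higher in 6 of 9 pigs (exact sign-flip p = 0.246), most in pig 13 (1.18) and pig 5 (0.94), and least in pig 9 (-0.44). Of 13 relations between a member's change and this change, 2 passed Benjamini-Hochberg adjustment (exact permutation tests, two-sided). For PLN Ssc.5227.1.S1_at, r was -0.873 (p = 0.00193, adjusted p = 0.0126) and rho -0.933 (p = 0.00075, adjusted p = 0.00974), with r -0.938 without the 2 pigs farthest from the median. For the dimmest ATP2A2 probe set, r was 0.851 (exact permutation p = 0.00101, adjusted p = 0.0126) and rho 0.750 (p = 0.0255, adjusted p = 0.0828), with r 0.803 without those 2. PLN signal was thus lower, and that ATP2A2 signal higher, in pigs whose 3'/5' difference grew.

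Without pig 5, 6 of the 13 relations passed. Pig 5 had a large GAPDH change (0.94) but rose for RYR2 Ssc.16180.1.S1_at (0.43), CASQ2 Ssc.16147.1.A1_at (0.51) and PLN Ssc.5227.1.S2_at (0.58). Leaving it out removes the pig that went against these 3 relations and so favours them. The 6 relations are thus no support apart from that over all 9 pigs. The 6 were RYR2 Ssc.16180.1.S1_at (r = -0.940), both PLN probe sets (-0.912 and -0.926), the dimmest and the brightest ATP2A2 probe sets (0.931 and -0.876) and CASQ2 Ssc.16147.1.A1_at (-0.820). In label set 1 alone, with 6 pigs, 0 passed after adjustment, with r of -0.941 for that RYR2 probe set and -0.914 for PLN Ssc.5227.1.S1_at (exact permutation p = 0.0111 and 0.0153, unadjusted). Over all tested probe sets, r was 0.8 or more in size for 4.57% (members 2 of 13) and for 6.40% without pig 5 (members 6 of 13). Among probe sets above the median level these shares were 7.58% (members 1 of 9) and 10.2% (members 5 of 9). After removal of a straight line on the GAPDH change, r between members was 0.890 for CASQ2 with GJA1, 0.888 for ATP2A2 with GJA1 and 0.742 for ATP2A2 with CASQ2, and went from 0.660 to 0.094 for ATP2A2 with PLN and from 0.704 to 0.569 for PLN with RYR2. The same removal without pig 5 left 0.726, 0.749, 0.423, -0.543 and 0.158 for these 5 of 15 pairs. In that setting RYR2 went from 0.767 to -0.340 with ATP2A2, from 0.706 to -0.333 with CASQ2 and from 0.657 to -0.232 with GJA1. Over all 9 pigs the removal left those RYR2 pairs at 0.587, 0.636 and 0.674, and ATP2A2 with KCNJ2 went from 0.465 to 0.814. For the 2 ATP2A2 probe sets with an unadjusted p under 0.05, r with the GAPDH change was 0.235 and 0.315, and their changes with it as a covariate were 0.20 and 0.18.

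**Figure D4:**
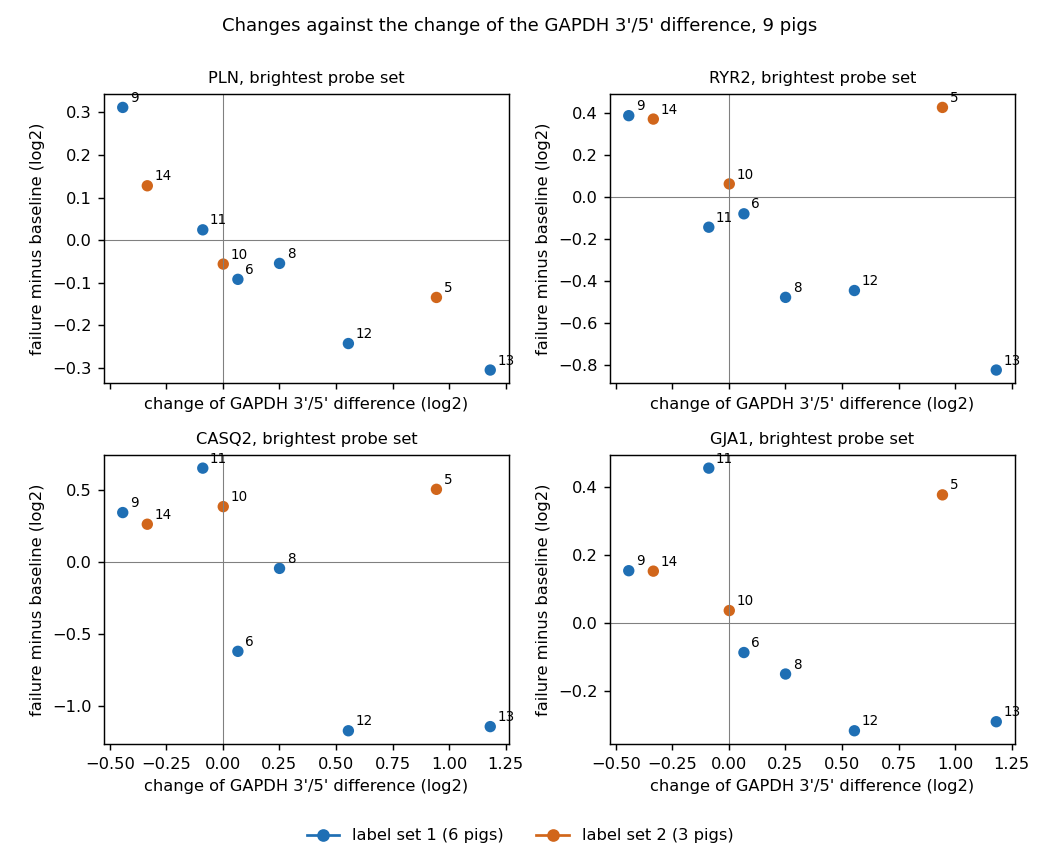
Change of the brightest probe set of PLN, RYR2, CASQ2 and GJA1 (vertical axes, failure minus baseline in log2 intensity, ranges differ) against the change of the GAPDH 3'/5' difference (horizontal axis, log2), with 1 point per pig, numbered and coloured by label set. PLN falls along the axis over all 9 pigs (r = -0.873), and pig 5 lies above the other pigs at the right for RYR2, CASQ2 and GJA1.

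The change differed between the label sets for no member after adjustment. In limma's interaction test the count was 0 of 23935 (0.00%). An unadjusted p under 0.05 was reached by 5.67%, and 3 of the 13 members were among the latter. RYR2 Ssc.16180.2.S1_at had a mean change of -0.44 ± 0.46 (SD, n = 6) among pigs of label set 1, and 0.96 ± 0.79 (SD, n = 3) was found for label set 2, a difference of 1.41 (limma unadjusted p = 0.000555, adjusted p = 0.867). RYR2 Ssc.16180.1.S1_at differed by 0.55 and KCNJ2 by 0.31 (limma unadjusted p = 0.0230 and 0.0487, adjusted p = 0.867 for both). For 10 of the 13 the mean change was higher in label set 2, which holds pig 5. The same share over all tested probe sets is not given here, and the 13 hold several probe sets of the same genes. No trait of these genes is read from that count. Among all probe sets with a limma unadjusted interaction p under 0.05, 753 were higher in label set 2 and 603 lower. Without pig 5 the 3 differences of RYR2 and KCNJ2 were 0.995, 0.48 and 0.21 (limma unadjusted p = 0.00500, 0.0804 and 0.210, adjusted p = 0.998 for each). In that run 1 of the 13 members kept a limma unadjusted p under 0.05, beside 1045 of all 23935 tested probe sets.

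Among other genes of calcium handling no change passed the threshold. Of a list of 68 such genes, members left out, 43 were measured, 0 passed the test in limma and 2 had an unadjusted p under 0.05 (4.65%, against 5.54% of 6765 named genes, of which 0.103% passed). Changes were above 0 for 16 and below 0 for 27, with a median of -0.01, beside -0.01 over all named genes. The 2 were ATP2A1 (0.15, and -0.02 for its other probe set), the fast skeletal muscle pump, and PPP1CB (-0.18, and -0.29 for its other probe set), a catalytic subunit of protein phosphatase 1; both were named after their values were seen, and both are deposited with 2 decimals.

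Regulators of the pump differed in how closely their change was measured. Sarcolipin (SLN), a small inhibitor of the pump most abundant in atrium, changed by 0.31 (95% interval -0.04 to 0.66, limma adjusted p = 0.850). S100A1, a calcium-binding protein that enhances pump activity, changed by -0.29 (95% interval -0.77 to 0.19). PPP1R1A, an inhibitor of protein phosphatase 1, changed by -0.14 and was lower in 7 of 9 pigs. CAMK2D, the kinase that phosphorylates PLN and RYR2, was bright (12.80) and changed by 0.01 (95% interval -0.10 to 0.12).

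Transcripts for partners of the release channel and for calcium transport at the surface membrane had these values. FKBP1B, whose product binds RYR2, changed by -0.12 (95% interval -0.28 to 0.05; 0.02 for its other probe set), sorcin (SRI) by -0.07 and HRC, a calcium-binding protein of the store, by -0.00. The sodium-calcium exchanger SLC8A1 changed by -0.01 (95% interval -0.27 to 0.24) and the surface pump ATP2B1 by -0.03. Of the calcium genes chosen for naming, TRDN, JPH2 and CACNA1C are among those with no probe set in the probe table used here.

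Of a conduction list of 61 genes, 22 were measured, 0 passed in limma and 3 had an unadjusted p under 0.05 (13.6%, beside the 5.54% of named genes). Changes were above 0 for 15 and below 0 for 7, with a median of 0.03, beside 46.4% above 0 and a median of -0.01 over all named genes. The 3 were all higher in failure: TJP1 (0.18), the tight junction protein that binds connexin 43, HOPX (0.17), a transcriptional regulator, and the potassium channel gene KCNH2 (0.14, and 0.06 for its other probe set). TJP1 was dim, with a mean level of 3.33, higher than only 13.8% of tested probe sets. HOPX and KCNH2 were named after their values were seen, and TJP1 and KCNH2 are deposited with 2 decimals. Over all tested probe sets, 73.8% of those with at most 2 decimals had a limma unadjusted p under 0.05, against 1.72% of the others. The 5.54% joins both kinds of row, so no trait of conduction genes is read from the 13.6%. KCNJ8, a subunit of the ATP-sensitive potassium channel, changed by -0.14 and was lower in 7 of 9 pigs (limma adjusted p = 0.812, 2 decimals), while its other 2 probe sets were at -0.13 and 0.11. KCNJ3, a subunit of the acetylcholine-activated potassium channel, changed by 0.05 (other probe set -0.04), the delayed rectifier gene KCNQ1 by 0.03 (3 others, -0.06 to 0.07) and GJA5, the connexin of atrium and Purkinje fibres, by 0.03. The probe table used here names no probe set for KCNJ11, HCN4, FXYD1, CDH2 and PKP2, among others.

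Markers of other cells were measured beside these genes. Of 7 atrial markers, 5 were measured, all with a mean change above 0 and 0 past the threshold in limma (1 at an unadjusted p under 0.05), the highest being NPPA (1.11, limma adjusted p = 0.432). NPPA was higher in 8 of 9 pigs. SLN, MYL4, KCNJ3 and GJA5 changed by 0.31, 0.14, 0.05 and 0.03 and were higher in 5, 7, 6 and 4 of 9 pigs. SLN and KCNJ3 lay below the median level, at 5.18 and 5.24. The summed log2 level of the 5 atrial markers ran from 29.2 to 38.6 at baseline and from 31.7 to 36.4 in failure. All 5 red blood cell markers were lower in failure and 3 passed (ALAS2, AHSP and HBM), with a summed level of 33.0 to 39.4 at baseline and 28.2 to 34.6 in failure. NPPA, ALAS2, AHSP and HBM, and HBE1 of the red blood cell markers, are all deposited with 2 decimals, and HBB with 5. Of the fibroblast, endothelial, smooth muscle, leukocyte and adipocyte markers measured, 0 passed in limma, with ACTA2, CD8A and LEP at an unadjusted p under 0.05. Of 6 Purkinje or nodal markers only GJA5 was measured, by the probe set already counted as atrial. Purkinje cells were thus not assessed apart from atrial ones. CD8A and LEP are also deposited with 2 decimals, and ACTA2 with 4. The part of these cells in the values above was not tested.

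Genes whose level was most like that of each member were sought among 4919 named genes above the median level, over 18 arrays that share 9 pigs, as a description. PLN went with SDHD, a subunit of succinate dehydrogenase (r = 0.987, and 0.947 over 16 arrays without pig 5), MPC1 (0.982) and CCNG1 (0.974). ATP2A2 went with PTGER3 (0.961, and 0.905 without pig 5), HPRT1 (0.952) and GOT1 (0.950). RYR2 went with DCTN6 (0.928), CMBL (0.913) and AP2B1 (0.903). CASQ2 went with CNOT1 (0.878), NAA20 (0.873) and TMCO1 (0.857), and GJA1 with CNOT1 (0.895), LNPK (0.891) and HSF2 (0.885). Without pig 5 the order of these turned: TMCO1 (0.869) lay above CNOT1 (0.856) for CASQ2, and LNPK (0.921) above CNOT1 (0.898) for GJA1. KCNJ2 had no close match, the highest being CDYL (0.693), NEMF (0.670) and MEF2A (0.650).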

How the data were processed

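RNA was extracted with Trizol and RNeasy columns, and 250 ng were labelled with a 3' IVT kit that primes at the poly(A) tail, per the labels' protocols. The authors deposited 1 log2 intensity for each probe set, from 2.08 to 15.2, with array medians from 5.59 to 5.66. The submitters' processing notes name Partek. Background correction, normalization and genome build: not given in the sources used here. Values were used as deposited.

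Of 24123 probe sets, 188 controls were left out and 23935 tested. The probe table names 1 gene for 10069, several for 198 and does not list 13668; 9961 of those with 1 gene matched RefSeq (Sscrofa11.1 table, names only).

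Failure was compared with baseline in limma 3.58.1 (R 4.3.3; lmFit, eBayes, pig as block, two-sided, Benjamini-Hochberg over all tested probe sets, threshold 0.05), and label sets by an interaction. The labels give both samples of a pig the same number. After removal of group means they correlated at 0.449 to 0.750, each pig best with itself in 9 of 9. Single values were tested by exact permutation or sign-flip tests (Python 3.11.15, numpy 2.4.6, pandas 2.3.3). Precision is limited by the number of animals. The fits were tested on simulated data.

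The members and lists were chosen with earlier results of these data known. Named are all members, listed genes chosen whatever their values, and the 3 genes closest in level to each member; others are said to be named after their values were seen. A listed gene was represented by its brightest probe set. Alternatives were a fit without the block, a random pig effect, 2 scalings, a level filter, other variance models, each pig left out, each label set alone, a GAPDH 3'/5' covariate, rounding and gene means. Leaving out pigs 12 and 13, or 5 and 13, and relations between members were added after seeing the data.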

Additional observations from a re-analysis of the deposited data

Results flagged for a closer look

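Of 57 groups of values examined, 6 held a sample far from the others by Dixon's test at 95%; chance gives about 1 in 20, or 2.85. In 4 of the 6, the sample was from pig 5. PLN Ssc.5227.1.S1_at was at 12.52 in pig 5 at baseline against 13.17 to 13.64 in the other pigs, and at 12.39 in failure against 13.14 to 13.70. RYR2 Ssc.16180.1.S1_at was at 9.15 in pig 5 at baseline against 10.14 to 10.74. The GAPDH 3'/5' difference of the same array was 2.61 against 0.61 to 1.49.

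ATP2A2 Ssc.29181.1.A1_s_at was at 6.91 in pig 14 in failure against 7.47 to 7.99 in the others. The change of ATP2A2 minus that of PLN was -0.27 in pig 9 against -0.04 to 0.19.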

How the results depend on the processing

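Over all probe sets, the count of 16 past the threshold was 0 without pig as a block (no replicate block), 0 in the unmoderated paired test, 9 among probe sets above the median level, 10 with trend and robust variance, 3 in label set 1 alone and 0 in label set 2 alone. It was 9 with the GAPDH covariate, 4 with that covariate and without pig 5, 2 without pigs 12 and 13, 2 without pigs 5 and 13, and from 2 (without pig 10) to 26 (without pig 8) with each pig left out. Members past the threshold were 0 in each of these. Where 0 probe sets passed at all, as without the block, the count of members could not differ from 0. Both ATP2A2 probe sets with an unadjusted p under 0.05 in the main fit stayed above 0 in each run. The interaction gave 0 in each alternative run. Relations to the GAPDH 3'/5' change past the threshold went from 2 to 0 in label set 1 alone. They went to 6 without pig 5, which went against several of them. ATP2A2 minus PLN was -0.046 and -0.075 for the brightest and the dimmest ATP2A2 probe set with Ssc.5227.1.S2_at, 0.26 for Ssc.29181.1.A1_s_at with Ssc.5227.1.S1_at, and 0.015 to 0.073 with each pig left out.

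Changes near 0 turned sign under several alternatives (log2, the covariate being the GAPDH 3'/5' difference). The cause was not tested. A value given as gene mean is the mean over all probe sets of that gene, not another estimate for the named probe set. For ATP2A2 it includes the 2 probe sets deposited with 2 decimals. ATP2A2 Ssc.22641.2.S1_a_at was at 0.00041 with quantile normalization, 0.059 in label set 2 alone, 0.035 with the covariate, 0.024 with it and without pig 5, 0.048 without pigs 12 and 13, 0.027 without pigs 5 and 13, 0.092 as gene mean and -0.040 to 0.027 with each pig left out. ATP2A2 Ssc.22641.3.S1_at was at 0.0035 in label set 1 alone, 0.092 as gene mean and -0.13 to 0.023 with each pig left out. PLN Ssc.5227.1.S1_at was at 0.023 with the covariate, 0.015 with it and without pig 5, 0.018 without pigs 12 and 13 and 0.0028 without pigs 5 and 13. PLN Ssc.5227.1.S2_at was at -0.10 in label set 1 alone, -0.0064 as gene mean and -0.035 to 0.13 with each pig left out.

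RYR2 Ssc.16180.1.S1_at was at 0.29 in label set 2 alone, 0.022 with the covariate, 0.079 without pigs 12 and 13 and -0.14 to 0.014 with each pig left out. RYR2 Ssc.16180.2.S1_at was at -0.44 in label set 1 alone, -0.029 with the covariate, -0.13 with it and without pig 5, -0.12 without pigs 5 and 13, -0.030 as gene mean and -0.20 to 0.15 with each pig left out. RYR2 Ssc.16180.2.A1_at was at -0.068 to 0.0012 with each pig left out. CASQ2 Ssc.16147.1.A1_at was at 0.39 in label set 2 alone, 0.071 with the covariate, 0.0030 with it and without pig 5, 0.21 without pigs 12 and 13 and -0.18 to 0.045 with each pig left out. CASQ2 Ssc.16147.1.S1_at was at 3.6e-05 with arrays centred, 0.013 in label set 1 alone, 0.056 with the covariate, 0.059 with it and without pig 5, 0.041 without pigs 12 and 13, 0.037 without pigs 5 and 13 and -0.044 to 0.030 with each pig left out. KCNJ2 Ssc.15965.1.S1_at was at -0.0041 with quantile normalization, -0.099 in label set 1 alone, -0.0092 with the covariate, -0.033 with it and without pig 5, -0.039 without pigs 5 and 13 and -0.047 to 0.042 with each pig left out. GJA1 Ssc.942.1.S1_at was at -0.039 in label set 1 alone and -0.016 to 0.081 with each pig left out.

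Listed genes did so too. HRC was at 0.11 in label set 1 alone, 0.027 with the covariate and without pig 5, 0.055 without pigs 5 and 13 and -0.041 to 0.069 with each pig left out. SRI was at 0.024 in label set 1 alone. CAMK2D was at -0.020 in label set 1 alone, -0.0013 without pigs 5 and 13 and -0.0074 to 0.029 with each pig left out. SLC8A1 was at 0.27 in label set 2 alone and -0.12 to 0.072 with each pig left out. ATP2B1 was at 0.086 in label set 2 alone and -0.097 to 0.0060 with each pig left out. PPP1R1A was at 0.00027 in label set 2 alone. KCNJ3 was at -0.020 with the covariate, -0.024 with it and without pig 5 and -0.010 without pigs 5 and 13. KCNQ1 was at -0.14 in label set 2 alone and -0.012 to 0.071 with each pig left out. GJA5 was at -0.046 in label set 1 alone and -0.069 to 0.12 with each pig left out.

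For r with the 3'/5' change, RYR2 Ssc.16180.2.S1_at was at -0.078 and KCNJ2 at -0.081 in label set 1 alone, and at -0.365 and -0.266 without pig 5. Without the 2 pigs farthest from the median they were at -0.196 and -0.284, and ATP2A2 Ssc.29181.1.A1_s_at at -0.160. Between members, RYR2 with KCNJ2 had r -0.021 in label set 1 alone, and PLN with KCNJ2 0.032 without pig 5 and 0.343 without the 2 farthest pigs.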
